A study of Rattus norvegicus with 12 samples.

Results

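The genes described here encode the subunits of the 5 protein complexes of oxidative phosphorylation, read in ventral dentate gyrus of the rat. They were chosen by name: symbols beginning with Ndufa, Ndufb, Ndufc, Ndufs, Ndufv, Uqcr, Cox4 to Cox8 or Atp5, and Sdha, Sdhb, Sdhc, Sdhd and Cyc1. The rule found 88 of the 17172 genes in the count tables. Of these, 78 encode subunits: 34 of complex I, 4 of complex II, 9 of complex III, 16 of complex IV and 15 of complex V. The other 10 match the names but are no subunits: 6 complex I assembly factors, Cox7a2l, Atp5s, Atp5sl and the pseudogene Cox6c-ps1.

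All animals were male rats of Sprague-Dawley origin, from a pair of lines bred apart. The Flinders Resistant Line (FRL) is the control line of the Flinders Sensitive Line (FSL), a line used as a model of depression. The 12 libraries form 4 groups of 3: FRL on tap water (vehicle), FSL on tap water, and FSL on L-acetyl-carnitine (LAC) that were classed as non-responders or as responders. LAC, which carries acetyl groups across mitochondrial membranes, was dissolved in the drinking water at 0.3% w/v for 7 days, an intake near 210 mg/kg a day. The LAC animals were all FSL, so the FRL line was read without treatment only. Within a group the libraries are labelled as biological replicates, the number of animals behind each is not given in the sources used here, and p-values measure the spread between these libraries.

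Oxidative phosphorylation is the last stage of respiration in the inner mitochondrial membrane. Complex I takes electrons from NADH and complex II takes them from succinate. Both hand them to ubiquinone, complex III passes them to cytochrome c, and complex IV passes them to oxygen. Complexes I, III and IV pump protons, and complex V, the ATP synthase, uses the gradient to make ATP. Neurons draw most of their ATP from this route. A few core subunits of complexes I, III, IV and V are encoded by mitochondrial DNA, and these were not analysed here. The other subunits come from nuclear genes, and those that the rule found are the genes in this account.

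The libraries held 5905387 to 8137618 counts in genes, and the subunits took 0.883% to 1.15% of these. Levels are given as CPM, a gene's counts scaled to a common library total after adjusting library sizes by the trimmed mean of M-values (TMM), and 3 counts in a library correspond to 0.368 to 0.511 CPM. The 8 markers of dentate granule neurons, of which 6 passed the filter, summed to 327 to 601 CPM over the libraries. Prox1 stood at 9.19 CPM in responder library 1, 10.4 CPM in FRL vehicle library 2 and 51.6 to 129 CPM in the others. Thalamus markers summed to 649 CPM in responder library 1 and to 165 to 320 CPM elsewhere. The CA1 and CA3 markers of that library summed to 711 CPM, the lowest, against 792 to 996 CPM elsewhere. Of 10 choroid plexus markers 9 were tested, with Otx2 at 0 in all libraries, and their summed level was 15.8 to 27.5 CPM in FRL vehicle, 57.7 to 3346 in FSL vehicle, 20.4 to 6240.0 in non-responders and 10.9 to 51.7 in responders. FSL vehicle libraries 1 and 3 and non-responder library 1 were the high ones. The 10 oligodendrocyte markers summed to 5351 to 7617 CPM in FRL vehicle, 4230.0 to 5872 in FSL vehicle, 7314 to 12031 in non-responders and 5783 to 10843 in responders. Against FSL vehicle, all 10 were higher in responders (median log2 fold change 0.65) and in non-responders (0.79), and between the lines 9 of 10 were lower in FSL (-0.32). The 10 GABAergic interneuron markers summed to 843 to 1046 CPM in FRL vehicle, 709 to 848 in FSL vehicle, 852 to 934 in non-responders and 908 to 1051 in responders, with Npy at 0 in all libraries; the 9 tested were all lower in FSL than FRL vehicle (-0.30) and all higher in responders than FSL vehicle (0.35). The 14 endothelial and pericyte markers summed to 329 to 423 CPM in FRL vehicle, 438 to 1297 in FSL vehicle, 393 to 653 in non-responders and 387 to 419 in responders; 12 were higher in FSL than FRL vehicle (0.74) and 12 lower in responders than FSL vehicle (-0.69). The part of these markers in the subunit values was not tested. In bulk tissue, fewer cells of a type and less RNA per cell cannot be told apart.

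Nuclear subunit genes are known to carry promoter motifs of 3 factors that regulate mitochondrial genes: nuclear respiratory factor 1 (NRF1), the ETS family factor GABP (also called NRF2) and YY1. Promoters came from the RefSeq annotation of the build GRCr8, whereas the counts rest on the older build rn5, as the 250 bases before and the 30 bases after each gene's start. All 88 members matched a RefSeq gene, 71 by symbol and 17 by an older name, and 74 of them, 67 subunits among these, had a promoter in the table. A promoter is shown for each motif, with the motif in capitals, from genes that the naming rule had picked. Ndufs1 encodes an iron-sulfur core subunit of complex I and had the smallest p of all members between the lines. Its promoter lies at chr9:72073576-72073855 on the minus strand and holds the ETS letters CCGGAAG in reverse complement, 199 bases before the start. Ndufb8 encodes an accessory subunit of complex I and was lower in every FSL vehicle library than in every FRL vehicle library. Its promoter lies at chr1:253362907-253363186 on the minus strand and holds the YY1 letters AAGATGGCG, 22 bases after the start. Atp5g2, listed by RefSeq as Atp5mc2, encodes the c ring of complex V. Its promoter lies at chr7:135678189-135678468 on the minus strand and holds the NRF1 letters, which are GCGCA followed by its reverse complement TGCGC, 56 bases before the start.
Ndufs1: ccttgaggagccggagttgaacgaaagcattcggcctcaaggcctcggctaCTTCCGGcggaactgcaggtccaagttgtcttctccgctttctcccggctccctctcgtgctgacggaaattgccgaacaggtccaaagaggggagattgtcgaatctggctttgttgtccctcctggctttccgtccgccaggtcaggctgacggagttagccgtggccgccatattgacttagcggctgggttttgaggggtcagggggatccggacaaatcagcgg
Ndufb8: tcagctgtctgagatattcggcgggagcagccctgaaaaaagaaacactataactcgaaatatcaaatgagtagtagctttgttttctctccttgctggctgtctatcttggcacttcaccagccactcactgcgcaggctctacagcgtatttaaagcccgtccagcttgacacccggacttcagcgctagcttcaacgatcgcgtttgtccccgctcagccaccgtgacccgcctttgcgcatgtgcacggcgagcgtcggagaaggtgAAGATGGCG
Atp5g2: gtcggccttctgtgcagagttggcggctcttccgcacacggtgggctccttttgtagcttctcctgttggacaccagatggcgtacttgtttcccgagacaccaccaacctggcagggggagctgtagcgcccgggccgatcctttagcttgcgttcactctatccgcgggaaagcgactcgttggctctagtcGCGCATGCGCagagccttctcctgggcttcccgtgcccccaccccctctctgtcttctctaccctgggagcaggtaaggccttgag

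Counted on both strands, the ETS letters stood in 19 of the 67 subunit promoters (28.4%) against 8.9% of 27457 promoters of the same length. The YY1 letters stood in 7 subunit promoters (10.4%) against 1.6%, and the NRF1 letters in 4 (5.97%) against 0.918%. At least one of the 3 motifs stood in 27 subunit promoters (40.3%) against 10.9% of all promoters and 13.3% of those of protein-coding genes. By complex, 11 of 30 promoters of complex I, 2 of 4 of complex II, 4 of 6 of complex III, 4 of 13 of complex IV and 6 of 14 of complex V held one. Over the promoters of all members, 1 pair of matches overlapped. A match describes the letters in this window and shows no binding.

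The summed levels of the subunit mRNAs were similar in the 4 groups. None of the 82 members that passed the expression filter was called between groups at an adjusted p under 0.05 in edgeR's quasi-likelihood test. With 3 libraries per group, small differences can go uncalled. Summed over all subunits, the level was 10599, 11133 and 10141 CPM in FRL vehicle, 9762, 11196.5 and 8496 in FSL vehicle, 10885.5, 10149 and 9705 in non-responders and 10677, 10776 and 10932 in responders. The lowest and the highest of the 12 libraries were both FSL vehicle, replicates 3 and 2, and they differed 1.32-fold. The group means were 10625 ± 497 CPM in FRL vehicle, 9818 ± 1351 in FSL vehicle, 10247 ± 596 in non-responders and 10795 ± 129 in responders (SD, n = 3). All differences between these means were smaller than the SD of FSL vehicle, and the range of FSL vehicle covered all libraries of the other groups.

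**Figure D1:**
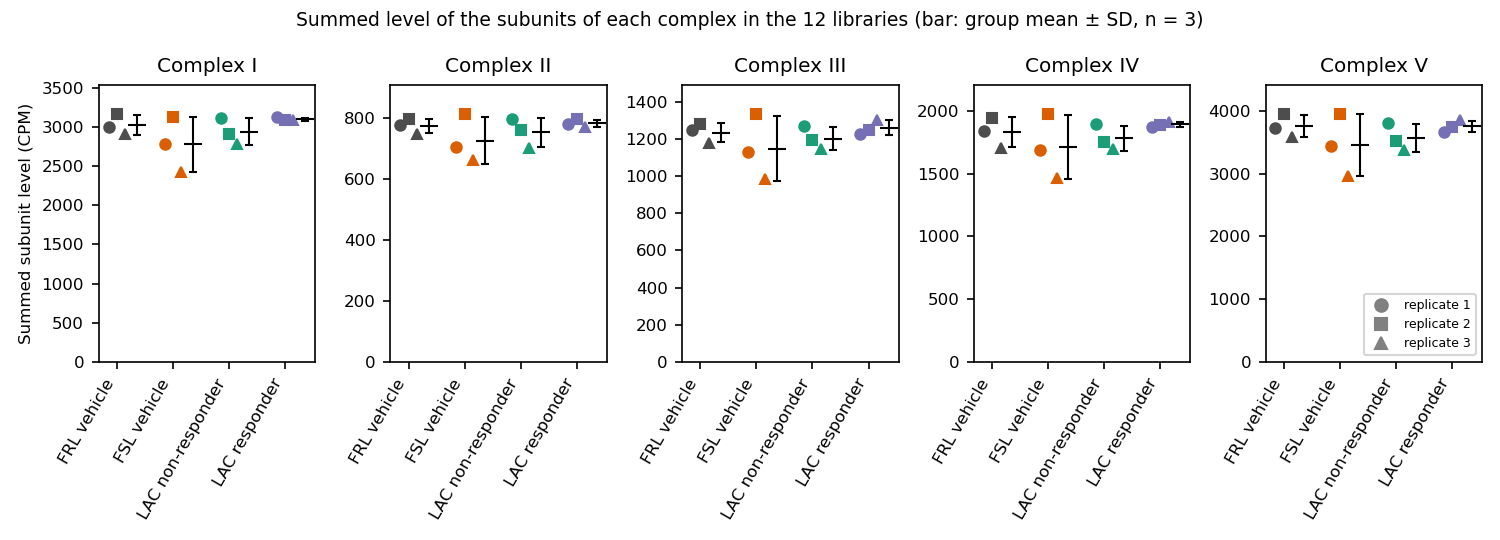
Summed level of the subunits of each complex (CPM, TMM scaled; y axes start at 0) in the 12 libraries, by group, with the group mean ± SD (n = 3) beside the points. In each panel the FSL vehicle libraries spread most, with replicate 3 lowest and replicate 2 highest of the group.

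The same picture held in each complex. The summed level of complex I was 3029 ± 126 CPM in FRL vehicle, 2782 ± 350 in FSL vehicle, 2942 ± 169 in non-responders and 3103 ± 18.5 in responders. That of complex II, which has no mitochondrially encoded subunit, was 773 ± 23.8, 726 ± 77.9, 752 ± 48.5 and 782 ± 12.4 CPM in the same order. Complex III summed to 1236 ± 51.2, 1149 ± 176, 1203 ± 61.5 and 1261 ± 39.6 CPM. In every complex FSL vehicle had the lowest mean and the largest SD. Complex IV summed to 1829.9 ± 119, 1710.2 ± 256, 1782 ± 99.9 and 1893 ± 18.6 CPM, and complex V to 3757 ± 180.5, 3451 ± 494, 3568 ± 219.6 and 3756 ± 91.6 CPM. Responders had the smallest SD in every complex.

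Of the 4 comparisons, 3 share the FSL vehicle libraries, so their values are given side by side and are not independent. With FSL vehicle against FRL vehicle, 0 members passed an adjusted p of 0.05 in edgeR's quasi-likelihood test (Benjamini-Hochberg), where 0.0681% of all 11750 genes tested did. At an unadjusted p under 0.05 there was 1 member, Ndufs1, against 13.9% of all genes. With responders against FSL vehicle, 0 members and 0% of genes passed, and 4 members had an unadjusted p under 0.05 (Ndufaf5, Ndufb11 and Ndufa8 among them) against 13.8% of genes. With non-responders against FSL vehicle, 0 members and 0% of genes passed, and at the unadjusted threshold 0 members and 4.21% of genes. With responders against non-responders, 0 members and 0% of genes passed, and at the unadjusted threshold 0 members and 3.14% of genes. The test of any difference among the 4 groups called 0 members and 0.0255% of genes, and 0 members against 9.02% of genes at an unadjusted p under 0.05. DESeq2 and limma-voom also called 0 members in each of these. In this fit of all 12 libraries the share at the unadjusted threshold was lower among members than among genes at large; without FSL vehicle library 2 the order turned in the 3 comparisons with FSL vehicle and in the test over the 4 groups, as given with the medians.

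The signs of the small differences were shared by most subunits. Against FRL vehicle, 68 of the 73 tested subunits were lower in FSL vehicle (93.2%, against 51.6% of all genes), with a median log2 fold change of -0.10. For responders against FSL vehicle, 66 were higher (90.4% against 52%), with a median of 0.14. For non-responders against FSL vehicle, 59 were higher (80.8% against 48.9%), with a median of 0.06. For responders against non-responders, 65 were higher (89% against 50.3%), with a median of 0.08. The median standard error (SE) of a subunit's log2 fold change was 0.10 in each comparison, close to the size of these medians. Single log2 fold changes below stand with their SE, from the fit of all 12 libraries. Subunits are not replicates, and they were read in the same libraries.

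**Figure D2:**
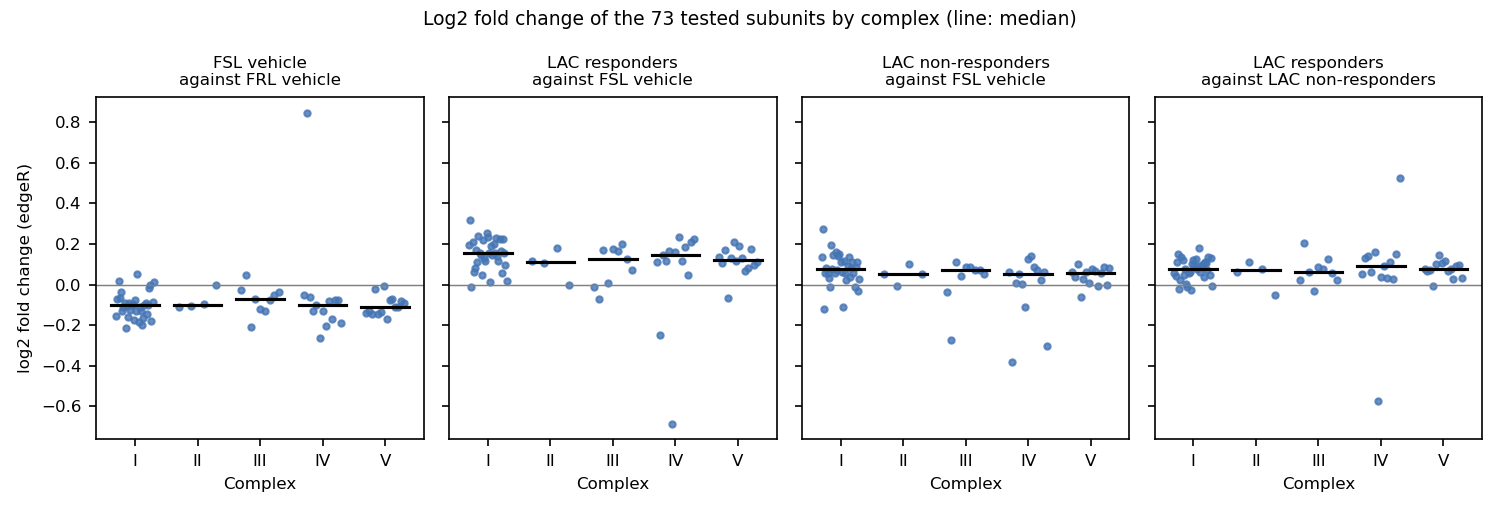
Log2 fold change (edgeR) of each of the 73 tested subunits, by complex, in the 4 comparisons, with the median as a line. Medians lie between -0.11 and -0.07 for FSL vehicle against FRL vehicle and between 0.11 and 0.16 for responders against FSL vehicle; the points far from the rest are the weakly expressed isoforms Cox4i2, Cox6a2 and Ndufa4l2 and the complex III subunit Uqcr10.

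These medians rested on FSL vehicle libraries 3 and 2. Without FSL vehicle library 3 the median of all subunits was -0.0042 between the lines, 0.043 for responders against FSL vehicle and -0.029 for non-responders against FSL vehicle. Without FSL vehicle library 2 the same medians were -0.21, 0.25 and 0.17, and 37 members between the lines and 54 for responders against FSL vehicle had an unadjusted p under 0.05. These were 45.1% and 65.9% of the 82 members tested, against 21.6% and 25.1% of all genes in the same fit. For non-responders against FSL vehicle it was 19 members (23.2%) against 9.78% of genes, and over the 4 groups 17 (20.7%) against 14.6%. Even so 0 members passed the adjusted threshold, with a smallest adjusted p of 0.129 and 0.0987 in edgeR's test. Leaving out the 3 choroid-rich libraries, FSL vehicle 1 and 3 and non-responder 1, left FSL vehicle with library 2 only, and the medians turned to 0.083, -0.055 and -0.17. In that fit 17 of 83 members (20.5%) for non-responders against FSL vehicle and 9 (10.8%) between the LAC groups had an unadjusted p under 0.05, against 11.6% and 8.42% of genes, and 2 members did in each of the other comparisons with FSL vehicle, against 14.4% of genes between the lines and 10.9% for responders. The median of responders against non-responders, a difference that does not contain FSL vehicle, lay between 0.035 and 0.12 whichever single library was left out. With the mean of meningeal markers as a covariate, described below, it was 0.033.

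The complexes moved together from library to library. FSL vehicle library 3 was the lowest of the 12 libraries in 57 of the 73 subunits (78.1%, against 21.1% of all genes). FSL vehicle library 2 was the highest in 19 subunits (26.0% against 7.95% of genes). FRL vehicle library 2 was the highest in 15 (20.5% against 10.1%) and non-responder library 1 in 12 (16.4% against 5.67%). Within FSL vehicle, 61 subunits (83.6%, against 22.5% of genes) had the order library 3, library 1, library 2 from low to high. In 71 of 73 subunits (97.3%, against 46.7% of genes) library 2 was above library 3. The median fold of library 2 over library 3 was 1.31 for all subunits and 0.974 for all genes. It was 1.28 for complex I, 1.24 for complex II, 1.34 for complex III, 1.33 for complex IV and 1.32 for complex V.

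**Figure D3:**
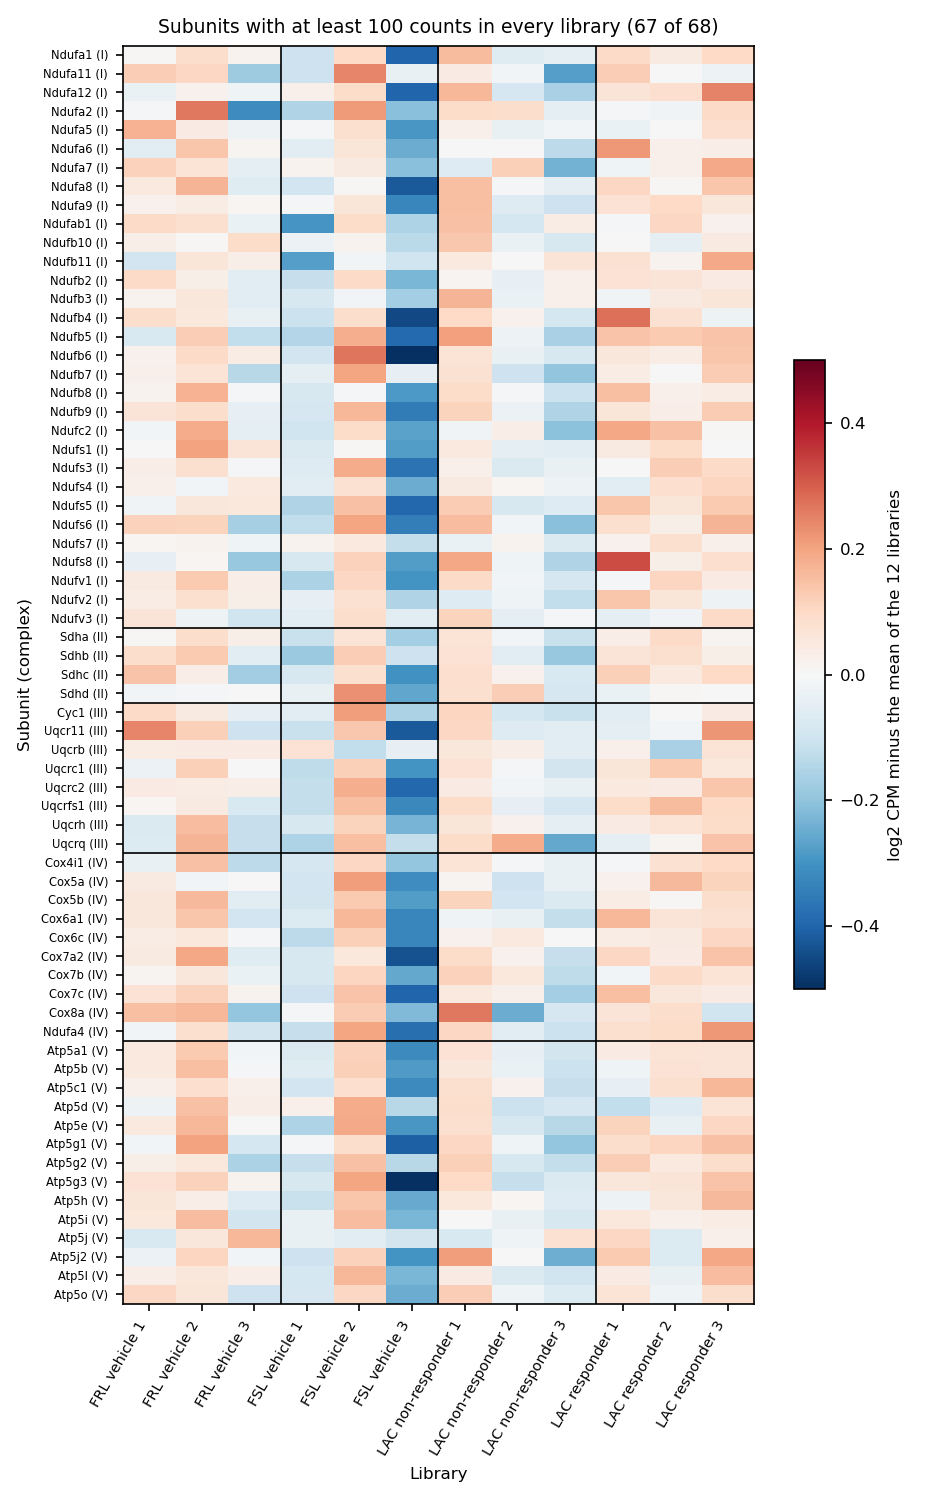
Log2 CPM of 67 of the 68 subunits with at least 100 counts in every library, each minus its mean over the 12 libraries (colour), by complex (rows) and library (columns). The column of FSL vehicle library 3 is blue in nearly every row, and the column of FSL vehicle library 2 is red in most.

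As a description over 12 libraries, the log2 CPM of a subunit correlated with the mean of the other subunits at a median r of 0.871. Of the 73 subunits, 67 (91.8%) had an r above 0.5, against 26.8% of 7637 other genes in the same range of mean level. Without FSL vehicle library 3, over 11 libraries, the median r was 0.762 and 60 subunits (82.2%) stood above 0.5, against 19.8% of those genes. The points share library, depth and tissue makeup. The subunits that did not follow the others were Cox4i2 (r = -0.27), Cox6a2 (-0.01), Uqcrb (0.02), Ndufa4l2 (0.07) and Atp5j (0.09). Between its highest and lowest library, a member with at least 100 counts in every library varied 1.15-fold (Ndufs7) to 1.71-fold (Ndufb6), with a median of 1.38-fold.

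The share of reads that fell in genes moved with the subunit level. The 4 libraries with the lowest share were FSL vehicle 3 (21.2% of the reads in its file), FSL vehicle 1 (21.8%), FRL vehicle 3 (22.3%) and non-responder 3 (23.9%). They were also the 4 with the lowest summed subunit level, at 8496, 9762, 10141 and 9705 CPM. In the other 8 libraries the share was 25.3% to 27.9%. With that share as a covariate, the median of all subunits was -0.033 between the lines, 0.023 for responders against FSL vehicle and -0.052 for non-responders against FSL vehicle. Between the LAC groups it was 0.061. With that covariate, chosen after the data were seen, 0 members passed in any comparison in edgeR's test. The meningeal and fibroblast markers, of which 12 of 14 were tested, summed to 194 to 424 CPM in FRL vehicle, 319.6 to 3224 in FSL vehicle, 479.9 to 713 in non-responders and 111 to 289 in responders. They averaged 7.32 log2 CPM in FSL vehicle library 3 and 5.79 in FSL vehicle library 2, the highest of the 12, against 2.67 to 5.31 elsewhere. The summed subunit level was lowest in FSL vehicle library 3 and highest in FSL vehicle library 2, and its relation to these markers was not tested. Col1a2 of that list was at 0 in all libraries. Pan-neuronal markers averaged 8.43 log2 CPM in FSL vehicle library 3, 8.5 in FSL vehicle library 2 and 8.56 to 8.90 in the rest. All 9 tested were lower in FSL than FRL vehicle (median log2 fold change -0.29). Above FSL vehicle were 8 of the 9 in responders (0.20) and 9 in non-responders (0.16). Between the LAC groups 4 were higher in responders and 5 lower (-0.031). With the meningeal mean as a covariate the subunit median was -0.041 between the lines and 0.033 for responders against non-responders. Against FSL vehicle it was 0.074 for responders and 0.026 for non-responders. With the pan-neuronal mean the medians were, in the same order, -0.085, 0.075, 0.12 and 0.045. The part of the read share, the meninges and the share of neurons in the subunit levels was not tested beyond these fits.

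**Figure D4:**
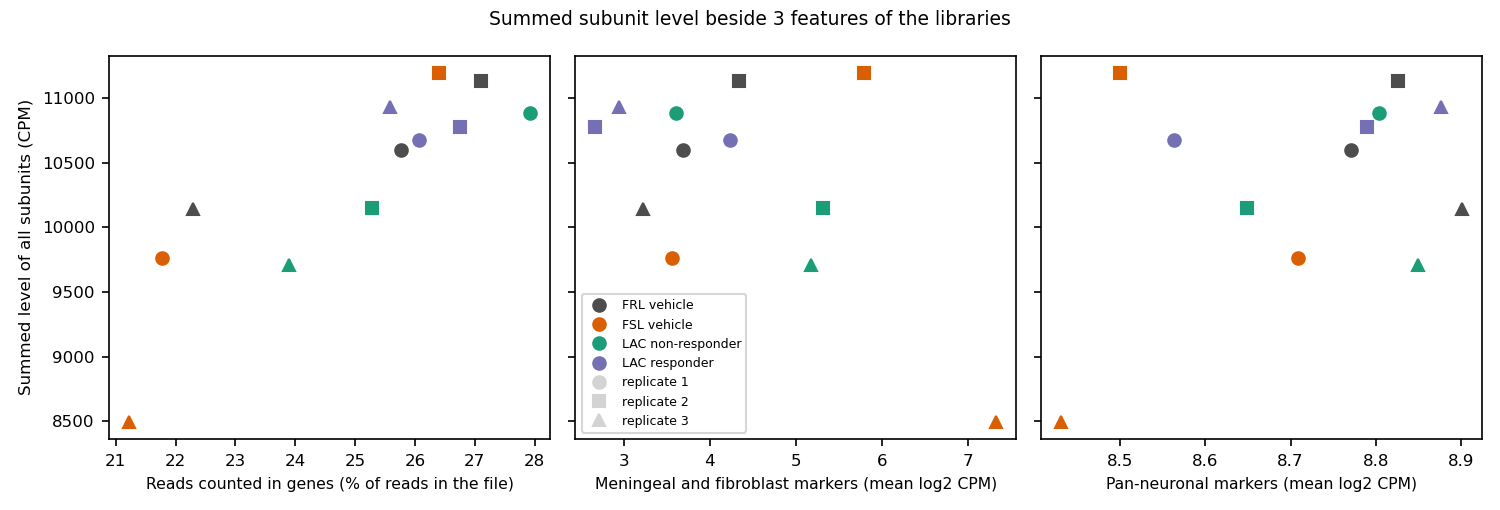
Summed level of all subunits (CPM; the y axis does not start at 0) in the 12 libraries against the share of reads counted in genes (%), the mean of meningeal and fibroblast markers and the mean of pan-neuronal markers (both log2 CPM). The libraries with 21.2% to 23.9% of reads in genes have 8496 to 10141 CPM, and the 2 libraries richest in meningeal markers have the lowest and the highest subunit level.

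In complex I, 7 core subunits carry electrons from NADH to ubiquinone, and 27 accessory subunits surround them, 33 of the 34 being tested. Between the lines 30 of the 33 were lower in FSL vehicle (median -0.10), and for responders against FSL vehicle 32 were higher (median 0.16). Non-responders were above FSL vehicle in 28 (median 0.08) and responders above non-responders in 29 (median 0.08). The core subunits alone had medians of -0.10, 0.15, 0.09 and 0.09, close to those of the accessory subunits (-0.10, 0.16, 0.08 and 0.08).

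The arm that takes up NADH holds Ndufv1, Ndufv2 and Ndufs1. Ndufs1 stood at 269, 309 and 281 CPM in FRL vehicle, 256, 269.7 and 222 in FSL vehicle, 278, 259.5 and 259 in non-responders and 277, 286 and 268 in responders. FSL vehicle and FRL vehicle overlapped by a narrow margin, since FSL vehicle library 2 stood between FRL vehicle libraries 1 and 3. The log2 fold change between the lines was -0.20 ± 0.09 (95% interval -0.39 to -0.01; edgeR adjusted p = 0.327). Ndufv1, the subunit that binds NADH, stood at 209, 222 and 208 CPM in FRL vehicle, 182, 218 and 165 in FSL vehicle, 217, 201 and 192 in non-responders and 202, 218 and 209 in responders. Its lines overlapped through FSL vehicle library 2, and the difference was -0.18 ± 0.10 (adjusted p = 0.442 by edgeR). Ndufv2 had the smallest p in complex I for responders against non-responders, at 0.13 ± 0.07 (edgeR adjusted p = 0.992). Its levels were 128, 132 and 127 CPM in FRL vehicle, 121, 131 and 112 in FSL vehicle, 119, 123 and 114 in non-responders and 137, 129.6 and 122 in responders, and the LAC groups overlapped.

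In the comparisons with FSL vehicle, the accessory subunits of complex I whose groups did not overlap were Ndufb11 and Ndufb8. The shares of all genes without overlap are given below. Ndufb11 stood at 38.5, 42.8 and 41.9 CPM in FRL vehicle, 33.9, 40.6 and 38.4 in FSL vehicle, 42.5, 41.0 and 43.0 in non-responders and 43.2, 41.5 and 46.8 in responders. All responder and all non-responder libraries were above all FSL vehicle libraries, with log2 fold changes of 0.22 ± 0.09 and 0.16 ± 0.09 (edgeR adjusted p = 0.321 and 0.976). Its lowest library was FSL vehicle 1, not 3, and its r with the other subunits was 0.47. Ndufb8 stood at 137, 152 and 134 CPM in FRL vehicle, 128, 134 and 111 in FSL vehicle, 144, 134 and 125 in non-responders and 149.6, 137 and 138 in responders. Each FSL vehicle library was below each FRL vehicle library and below each responder library, with FSL vehicle library 2 less than 1 CPM from FRL vehicle library 3. The log2 fold change was -0.19 ± 0.09 between the lines and 0.19 ± 0.09 for responders against FSL vehicle (edgeR adjusted p = 0.386 and 0.374).

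A member's groups were taken not to overlap where every library of one group was above every library of the other. Between the lines, 2 of 82 members were lower in every FSL vehicle library (Ndufb8 and Ndufaf3), against 6.23% of genes. For responders against FSL vehicle, 4 were higher in every responder library (Ndufb8, Ndufb11 and Ndufaf3 among them) against 6.37% of genes, and for non-responders against FSL vehicle 1 was (Ndufb11) against 4.68%. For responders against non-responders, 10 of 82 members were higher in every responder library, against 5.76% of genes; this share was above that of all genes, where the shares in the other 3 comparisons were below it. They were Ndufa6, Ndufb2 and Ndufs7 of complex I, Uqcr10, Uqcrc2 and Uqcrfs1 of complex III, Cox5a and Cox6a1 of complex IV, Atp5i of complex V, and Cox7a2l. No member was lower in every responder library than in every non-responder library, against 5.54% of genes.

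Ndufa8, Ndufb3 and Ndufc2 are accessory subunits as well. Ndufa8 stood at 91.9, 100.0 and 85.3 CPM in FRL vehicle, 83.3, 89.4 and 66.5 in FSL vehicle, 98.7, 88.5 and 86.2 in non-responders and 95.6, 89.2 and 98.0 in responders. Its lowest library was FSL vehicle 3, FSL vehicle overlapped every other group, and the difference of responders from FSL vehicle was 0.24 ± 0.11 (edgeR adjusted p = 0.363). Ndufb3 stood at 87.5, 90.0 and 83.1 CPM in FRL vehicle, 81.8, 85.7 and 76.9 in FSL vehicle, 97.3, 84.5 and 87.9 in non-responders and 85.4, 89.1 and 90.3 in responders. Non-responders and FSL vehicle overlapped, with a difference of 0.14 ± 0.08 (edgeR adjusted p = 0.976). Ndufc2 stood at 79.0, 90.7 and 77.0 CPM in FRL vehicle, 74.5, 84.9 and 66.2 in FSL vehicle, 78.8, 81.5 and 69.1 in non-responders and 91.2, 88.4 and 80.0 in responders. Non-responder library 2 was above responder library 3, so the LAC groups overlapped, with a difference of 0.18 ± 0.11 (edgeR adjusted p = 0.992). Ndufa10l1, a close copy of Ndufa10, was listed at 0 in all libraries, while Ndufa10 had 84 to 173 counts; reads shared by close copies may be missing from either.

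Complex II, succinate dehydrogenase, links the citric acid cycle to ubiquinone. Sdha, the flavoprotein that oxidises succinate, stood at 423, 448 and 430.0 CPM in FRL vehicle, 389.8, 441 and 374 in FSL vehicle, 442, 416 and 390.0 in non-responders and 431, 449 and 425 in responders. Sdhb, the iron-sulfur subunit, stood at 109, 112 and 98.5 CPM in FRL vehicle, 90.2, 112 and 95.5 in FSL vehicle, 108, 98.8 and 89.9 in non-responders and 107, 108 and 105 in responders. FSL vehicle overlapped the other groups in both. The membrane anchor Sdhc stood at 135, 125 and 108 CPM in FRL vehicle, 116, 129 and 99.2 in FSL vehicle, 129.7, 124 and 116 in non-responders and 133, 127 and 131 in responders. The other anchor, Sdhd, stood at 110.0, 110.1 and 111 CPM in FRL vehicle, 108, 129.9 and 92.7 in FSL vehicle, 117, 121 and 105 in non-responders and 109, 111 and 111 in responders. FSL vehicle held both the lowest and the highest library of Sdhd, while the responder and FRL vehicle libraries lay within 3 CPM of each other. Library 3 of FSL vehicle was the lowest in Sdha, Sdhc and Sdhd, and library 3 of the non-responders in Sdhb. Between the lines the 4 log2 fold changes were -0.11 ± 0.08, -0.10 ± 0.10, -0.10 ± 0.11 and -0.0019 ± 0.11, and the smallest edgeR adjusted p of complex II in any comparison was 0.473, for Sdhc with responders against FSL vehicle. The difference of responders from FSL vehicle was 0.18 ± 0.11 in Sdhc and -0.00079 ± 0.11 in Sdhd.

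Complex III oxidises ubiquinol. Of its 9 nuclear subunits, 8 were lower in FSL vehicle than in FRL vehicle (median -0.07) and 7 were higher in responders than in FSL vehicle (median 0.13). Cyc1, the cytochrome that hands electrons to cytochrome c, stood at 148, 143 and 135 CPM in FRL vehicle, 134, 160.1 and 124 in FSL vehicle, 149, 130.2 and 128 in non-responders and 133, 139 and 143 in responders. FSL vehicle held its lowest and its highest library, and its log2 fold change was -0.02 ± 0.10 between the lines. Uqcrfs1, the Rieske iron-sulfur protein, stood at 125, 128 and 118 CPM in FRL vehicle, 115, 138 and 99.4 in FSL vehicle, 132, 121 and 117 in non-responders and 132, 139 and 133 in responders. Every responder library was above every non-responder library, the closest by less than 1 CPM, with a difference of 0.13 ± 0.11 (edgeR adjusted p = 0.992).

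Uqcrc1, one of the large core proteins on the matrix side, stood at 211, 234 and 215 CPM in FRL vehicle, 198, 234 and 175 in FSL vehicle, 227, 215 and 202 in non-responders and 225, 236 and 224 in responders. FSL vehicle library 2 lay among the FRL vehicle and responder libraries, and the difference of responders from FSL vehicle was 0.17 ± 0.10 (edgeR adjusted p = 0.465). The small subunit Uqcr11 stood at 198, 182 and 155 CPM in FRL vehicle, 155, 183 and 125 in FSL vehicle, 179, 159.8 and 161 in non-responders and 161, 165 and 195 in responders. It varied 1.58-fold over the libraries, the most in complex III among subunits with at least 100 counts in each, and the difference between the lines was -0.21 ± 0.14 (edgeR adjusted p = 0.535). Uqcr10, another small subunit, stood at 12, 10.7 and 10.2 CPM in FRL vehicle, 11.7, 13.0 and 9.24 in FSL vehicle, 9.63, 9.23 and 9.19 in non-responders and 11.1, 10.2 and 11.1 in responders. Non-responders were its lowest group, below every responder library, with -0.28 ± 0.15 against FSL vehicle and 0.21 ± 0.15 for responders against non-responders (edgeR adjusted p = 0.976 and 0.992). FSL vehicle library 3 was as low as the non-responders.

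Complex IV, cytochrome c oxidase, reduces oxygen. Of 13 tested subunits, 12 were lower in FSL vehicle than in FRL vehicle (median -0.10) and 11 were higher in responders than in FSL vehicle (median 0.15). Cox4i1, the common form of its subunit 4, stood at 343, 389 and 321 CPM in FRL vehicle, 332, 377 and 307 in FSL vehicle, 368, 349 and 343 in non-responders and 350.3, 371 and 377 in responders. All 4 groups overlapped. Cox5a, its neighbour in the complex, stood at 156, 150.3 and 152 CPM in FRL vehicle, 142, 175 and 122 in FSL vehicle, 153, 141 and 148 in non-responders and 154, 169.7 and 164 in responders. Responders were above all non-responders, with a difference of 0.14 ± 0.11 (edgeR adjusted p = 0.992), while FSL vehicle held the lowest and the highest library. Cox5b, a zinc-binding subunit, stood at 147, 159 and 137 CPM in FRL vehicle, 133, 155 and 117 in FSL vehicle, 153, 133 and 135 in non-responders and 146, 143 and 151 in responders. Its groups overlapped.

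Cox6a1, the common form of subunit 6a, stood at 251, 267 and 227 CPM in FRL vehicle, 230.5, 272 and 193 in FSL vehicle, 238, 236 and 222 in non-responders and 272, 253 and 255 in responders. The 3 responder libraries were above the 3 non-responder libraries by 0.16 ± 0.11 (edgeR adjusted p = 0.992), and FSL vehicle library 2 was level with the highest responder library. Cox7a2, the common form of subunit 7a, stood at 119.7, 133 and 111 CPM in FRL vehicle, 109.6, 120.1 and 85.7 in FSL vehicle, 123, 118 and 107 in non-responders and 125, 119 and 128 in responders. Its lowest library was FSL vehicle 3, and the largest fitted differences of the well-counted complex IV subunits were those of Cox7a2, -0.21 ± 0.12 between the lines and 0.24 ± 0.12 for responders against FSL vehicle (edgeR adjusted p = 0.468 and 0.402). Cox6c stood at 197, 199 and 191 CPM in FRL vehicle, 175, 208 and 153 in FSL vehicle, 195, 198 and 191 in non-responders and 196, 197 and 206 in responders. Its lowest libraries were FSL vehicle 3 and 1, and the other 10 stood between 191 and 208 CPM. Ndufa4, first assigned to complex I and now placed in complex IV, stood at 194, 207 and 184 CPM in FRL vehicle, 181, 224 and 151 in FSL vehicle, 210.3, 189 and 182 in non-responders and 207, 209 and 228 in responders. Cox8a stood at 161, 163 and 127 CPM in FRL vehicle, 144, 159 and 124 in FSL vehicle, 174, 122 and 137 in non-responders and 152, 154 and 135 in responders, with overlap of all groups in both genes.

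Of the complex IV members, 6 are forms known from other tissues or conditions, and their levels were low here. Cox4i2, known as the form induced by low oxygen, stood at 0.901, 0.933 and 0.341 CPM in FRL vehicle, 1.95, 0.774 and 1.40 in FSL vehicle, 1.19, 0.791 and 1.13 in non-responders and 1.96, 0.620 and 0.810 in responders. The groups overlapped, and the difference between the lines was 0.85 ± 0.55 (95% interval -0.37 to 2.06; edgeR adjusted p = 0.531). Cox6a2, the heart and muscle form of subunit 6a, stood at 0.386, 3.6 and 0.852 CPM in FRL vehicle, 0.812, 1.81 and 1.40 in FSL vehicle, 1.06, 1.85 and 0.848 in non-responders and 0.980, 1.36 and 0.135 in responders. FRL vehicle library 2 was highest, with 27 counts, and this library was also the highest in GABAergic interneuron markers, at 6.57 mean log2 CPM. Responder library 1, second highest in these markers at 6.47, had 0.980 CPM of Cox6a2, while FSL vehicle library 2, among the lowest at 5.97, had 1.81 CPM; the relation was not tested. Without FRL vehicle library 2 the log2 fold change of Cox6a2 between the lines went from -0.26 ± 0.76 to 1.16. Ndufa4l2, a second form of Ndufa4, stood at 1.54, 1.47 and 2.38 CPM in FRL vehicle, 1.30, 1.81 and 1.54 in FSL vehicle, 0.924, 1.58 and 1.27 in non-responders and 2.21, 1.36 and 1.89 in responders. Responders and non-responders overlapped, with a difference of 0.52 ± 0.34 (edgeR adjusted p = 0.992).

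Cox6b2, known as the testis form of subunit 6b, did not pass the filter. It had 4, 5 and 4 counts in FRL vehicle, 2, 4 and 6 in FSL vehicle, 6, 4 and 2 in non-responders and 8, 10 and 10 in responders. The 3 responder libraries were above all 9 others. In the fit without a filter the difference of responders was 1.06 ± 0.48 against FSL vehicle and 1.13 ± 0.48 against non-responders (edgeR adjusted p = 0.409 and 1). The 95% exact Poisson intervals overlap: 0.423 to 1.93 CPM for the lowest responder library and 0.308 to 1.83 CPM for the highest FSL vehicle library, for counting error only. Cox8b, the heart and muscle form of subunit 8, had 0 to 16 counts, with the most in non-responder library 1 (16) and FSL vehicle library 1 (8). These are also the 2 libraries with the highest choroid plexus markers, summing to 6240.0 and 3346 CPM. FSL vehicle library 3, the third choroid-rich library at 398 CPM, had 4 counts of Cox8b, and its relation to choroid plexus was not tested. Cox8c, the testis form of subunit 8, had 1 count in all, in FRL vehicle library 2. Cox7a1, Cox7b2 and Cox6b1 were not among the symbols that the rule found in the count tables, so they were not analysed here.

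**Figure D5:**
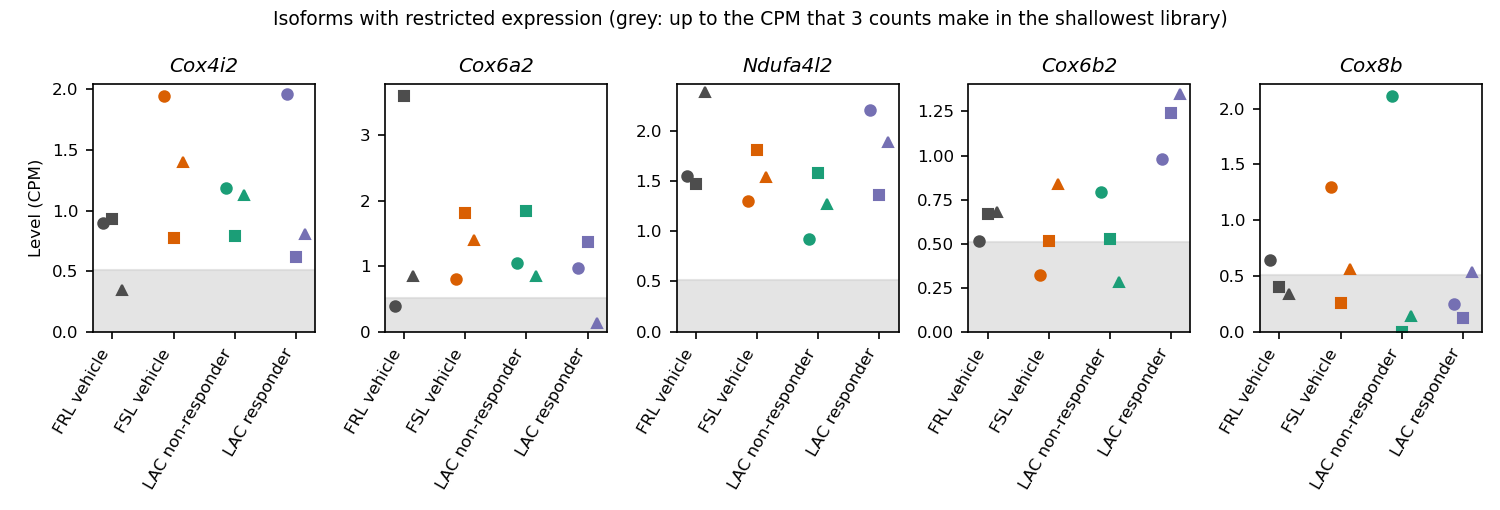
Level (CPM) of 5 weakly expressed forms of complex IV subunits in the 12 libraries, by group. Grey marks levels up to that of 3 counts in the library with the fewest; the 3 responder points of Cox6b2 (0.980, 1.24 and 1.35 CPM) lie above the others, and the groups overlap in the other 4 genes.

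Complex V makes ATP. All 14 tested subunits were lower in FSL vehicle than in FRL vehicle (median -0.11), 13 were higher in responders than in FSL vehicle (median 0.12) and 13 higher in responders than in non-responders (median 0.08). In the catalytic F1 head, Atp5a1 (alpha) stood at 864, 913 and 827 CPM in FRL vehicle, 793, 904 and 669 in FSL vehicle, 877, 810.5 and 782 in non-responders and 857, 875 and 872 in responders. Atp5b (beta) stood at 1379.9, 1478 and 1326 CPM in FRL vehicle, 1278, 1447 and 1094 in FSL vehicle, 1386, 1302 and 1236 in non-responders and 1313, 1400.0 and 1393 in responders. In both, FSL vehicle library 3 was lowest and FSL vehicle library 2 was inside the FRL vehicle range. Between the lines the log2 fold changes were -0.14 ± 0.10 and -0.13 ± 0.10, and for responders against FSL vehicle 0.14 ± 0.10 and 0.10 ± 0.10 (edgeR adjusted p = 0.59, 0.608, 0.574 and 0.668).

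Atp5c1 (gamma), the shaft of the rotor, stood at 229, 239 and 229 CPM in FRL vehicle, 210.3, 239 and 180.4 in FSL vehicle, 238, 228 and 208 in non-responders and 219, 238 and 253 in responders. It had the smallest p of complex V for both comparisons with responders or non-responders against FSL vehicle, at 0.17 ± 0.10 and 0.10 ± 0.10 (edgeR adjusted p = 0.476 and 0.977). The c ring that turns in the membrane is encoded by Atp5g1, Atp5g2 and Atp5g3. Atp5g1 stood at 82.1, 95.1 and 77.9 CPM in FRL vehicle, 82.1, 88.0 and 62.4 in FSL vehicle, 88.9, 81.6 and 72.4 in non-responders and 87.8, 89.2 and 91.5 in responders. FSL vehicle overlapped responders by a narrow margin, with a difference of 0.21 ± 0.13 (edgeR adjusted p = 0.487). Atp5g2 stood at 85.1, 86.4 and 74.6 CPM in FRL vehicle, 76.9, 92.2 and 75.6 in FSL vehicle, 90.5, 78.9 and 76.7 in non-responders and 90.8, 86.1 and 88.4 in responders. The difference between the lines was -0.01 ± 0.10, and FSL vehicle library 2 was its highest. Atp5o, the stalk subunit that holds the head in place, stood at 178, 173 and 154 CPM in FRL vehicle, 156, 178 and 139 in FSL vehicle, 180.4, 163 and 158 in non-responders and 173, 163 and 176 in responders. Its groups overlapped. Atp5f1, which encodes stalk subunit b, was listed at 0 in all libraries, and no statement on its expression is drawn from that.

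The 10 members that match the names without being subunits include the complex I assembly factors Ndufaf1 and Ndufaf3 to Ndufaf7. Ndufaf5, which modifies Ndufs7 during assembly, stood at 35.6, 42.8 and 37.0 CPM in FRL vehicle, 30.0, 38.2 and 30.9 in FSL vehicle, 35.8, 37.2 and 37.5 in non-responders and 43.1, 41.4 and 36.3 in responders. FSL vehicle library 2 overlapped responders, and the difference was 0.28 ± 0.11, the smallest p of any member in that comparison (edgeR adjusted p = 0.317). Ndufaf3 stood at 38, 36.7 and 36.1 CPM in FRL vehicle, 35.9, 35.3 and 28.6 in FSL vehicle, 38.8, 33.9 and 29.8 in non-responders and 39.5, 38.3 and 39.1 in responders. All FSL vehicle libraries were below all FRL vehicle and all responder libraries, by less than 1 CPM from the nearest FRL vehicle library, with differences of -0.15 ± 0.11 and 0.23 ± 0.11 (edgeR adjusted p = 0.583 and 0.393). Atp5sl stood at 38.9, 41.5 and 41.4 CPM in FRL vehicle, 33.4, 41.2 and 37.1 in FSL vehicle, 36.4, 33.8 and 32.2 in non-responders and 43.6, 34.2 and 38.7 in responders. The LAC groups overlapped, with a difference of 0.19 ± 0.11 (edgeR adjusted p = 0.992). Over the 9 tested, the medians were -0.12, 0.19, 0.06 and 0.13 in the order of the comparisons above, and the pseudogene Cox6c-ps1 was listed at 0.

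Other genes of the pathway gave 1 call. Assembly factors help build each complex. Of 42 tested, the Ndufaf members included, 1 passed, in the comparison between the lines, where 0.0681% of all genes did. The gene was Cmc1, which helps assemble complex IV, named after its values were seen. It stood at 3.22, 2.13 and 3.41 CPM in FRL vehicle, 7.63, 10.7 and 8.82 in FSL vehicle, 11.1, 10.5 and 7.63 in non-responders and 10.2, 8.55 and 9.31 in responders. Every FSL library, treated or not, was above every FRL vehicle library, and the difference between the lines was 1.64 ± 0.23 (edgeR adjusted p = 0.037), with 0.04 ± 0.21 for responders against FSL vehicle. The direction was the same in all 26 alternatives, and the call held in 8 of them, with adjusted p from 2.99e-05 (DESeq2) to 0.803 (edgeR with a pan-neuronal covariate). Leaving out 1 library in turn, the call was kept without FSL vehicle library 1 or non-responder library 3 and lost without any of the other 10, down to 1.45 without FRL vehicle library 2 (edgeR adjusted p = 0.176). RefSeq also lists a copy, Cmc1l1, so that reads may be shared between them.

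The medians of the assembly lists lay between -0.14 and -0.036 between the lines. The 13 complex I factors had a median of -0.14 between the lines and 0.09 for responders against FSL vehicle, and the 18 tested complex IV factors -0.09 and 0.08. Higd2a, a complex IV assembly factor, stood at 40.4, 37.9 and 32.2 CPM in FRL vehicle, 28.6, 32.0 and 27.0 in FSL vehicle, 38.1, 30.9 and 38.9 in non-responders and 35.8, 36.7 and 40.5 in responders. Each FSL vehicle library was below every FRL vehicle and every responder library, the closest by less than 1 CPM, and the differences were -0.34 ± 0.12 and 0.37 ± 0.12 (edgeR adjusted p = 0.274 and 0.275). Cox16, another of these factors, stood at 14.2, 13.1 and 16.2 CPM in FRL vehicle, 17.4, 17.3 and 23.1 in FSL vehicle, 16.2, 15.8 and 16.8 in non-responders and 14.6, 14.5 and 14.6 in responders. Each FSL vehicle library was above all FRL vehicle and all LAC libraries, with 0.41 ± 0.13 and -0.40 ± 0.13 (edgeR adjusted p = 0.265 and 0.275). These genes, and those named from the next lists, were picked after their values were seen.

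Of 10 tested genes for cytochrome c, the carriers of ADP, ATP and phosphate, porins and uncoupling proteins, 0 passed in any comparison, with a median of -0.12 between the lines and 0.12 for responders against FSL vehicle. Cycs, which encodes cytochrome c, stood at 305, 312 and 311 CPM in FRL vehicle, 271, 342 and 206 in FSL vehicle, 319, 275 and 286 in non-responders and 282, 317 and 349 in responders. Its lowest library was FSL vehicle 3 and its second highest FSL vehicle 2. Of 16 regulators of mitochondrial genes, 0 passed, with medians of -0.0077 between the lines and -0.016 for responders against FSL vehicle. Tfam, which packages and transcribes mitochondrial DNA, stood at 31.7, 32.3 and 32.2 CPM in FRL vehicle, 30.0, 31.1 and 29.5 in FSL vehicle, 32.3, 30.3 and 33.2 in non-responders and 32.1, 34.0 and 39.0 in responders. Every responder library was above every FSL vehicle library, with a difference of 0.21 ± 0.09 (edgeR adjusted p = 0.329). Gabpa, the DNA-binding part of the ETS factor GABP, stood at 40.7, 39.7 and 40.2 CPM in FRL vehicle, 45.1, 43.3 and 45.5 in FSL vehicle, 50.4, 48.5 and 45.5 in non-responders and 39.8, 43.5 and 39.5 in responders. Non-responders were above all responders in Gabpa, with a difference of -0.23 ± 0.07 (edgeR adjusted p = 0.992). Nrf1, which encodes the factor of the NRF1 motif, stood at 13.9, 14.9 and 16.0 CPM in FRL vehicle, 16.9, 13.7 and 22.0 in FSL vehicle, 14.0, 16.6 and 16.0 in non-responders and 13.6, 11.8 and 17.0 in responders. FSL vehicle library 3, lowest in most subunits, was highest in Nrf1, as it was in 22.5% of all genes tested. Ppargc1a, the coactivator of mitochondrial biogenesis, stood at 56.5, 68.3 and 72.7 CPM in FRL vehicle, 72.1, 43.0 and 58.0 in FSL vehicle, 53.2, 62.8 and 67.8 in non-responders and 47.3, 60.5 and 59.8 in responders. FSL vehicle library 2, highest in summed subunits, was lowest in Ppargc1a, as it was in 14.3% of all genes tested. The relation of these regulators to the subunit levels was not tested.

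Genes outside the rule whose log2 CPM over the 12 libraries most resembled the subunit mean were Serinc1 (r = 0.979), Atxn7l3b (0.978), Ube2d3 (0.977), Zmat2 (0.977) and Slc25a3 (0.971). Serinc1, a membrane protein, stood at 1865, 1965 and 1721 CPM in FRL vehicle, 1627, 2007 and 1379.5 in FSL vehicle, 1963, 1752 and 1688 in non-responders and 1820.5, 1944 and 1935 in responders. Slc25a3, the mitochondrial phosphate carrier that supplies ATP synthase, stood at 410.0, 458 and 389.9 CPM in FRL vehicle, 388, 467 and 319 in FSL vehicle, 433, 397 and 368 in non-responders and 419.5, 431 and 419.8 in responders. Both had FSL vehicle library 3 lowest and library 2 highest.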

How the data were processed

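RNA of the ventral dentate gyrus was sequenced in 12 libraries, and the deposited tables hold read counts per gene as the authors made them. Per the submitters' processing notes, reads were checked with FastQC 0.11.3, trimmed with Trimmomatic 0.33, aligned to rn5 with TopHat2 2.0.9 and counted with HTSeq 0.6.1, with edgeR 3.12.0 listed as well. The annotation, the strand setting and the criterion for response were not found in the labels; without a strand setting, reads of overlapping or antisense genes may not be told apart. The 5 summary lines of each table name no gene and were left out: 47.7% to 52.7% of reads lay in no feature, 24.3% to 28.4% aligned to several places and 0.0756% to 0.106% were ambiguous.

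All 12 libraries entered 1 fit in edgeR 4.0.16 (R 4.3.3) with TMM factors of 0.975 to 1.04, the default expression filter by group (11750 of 17172 genes kept), the robust quasi-likelihood test with 8 residual degrees of freedom, and Benjamini-Hochberg adjustment over all genes kept, at a threshold of 0.05. Levels are CPM, and log2 CPM adds a prior count of 2. Library totals of 5905387 to 8137618 counts set the precision; Poisson intervals (95%) and the floor of 3 counts cover counting error only. DESeq2 1.42.0 and limma 3.58.1 (voom) served as alternatives, beside other scalings and filters, covariates and libraries left out. Replicate pairs differed by more than sampling noise (chi-square per degree of freedom 5.35 to 27.1), so all libraries count.

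The labels give the groups shared replicate numbers. Only FSL vehicle and non-responders met the rule for pairing, with correlations of same-numbered libraries' deviations of 0.581, 0.212 and 0.426; no label states a pairing, and the fit has no block.

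The members and all lists were chosen with earlier results of these data known. Named are the 10 members of smallest p over the 4 groups, the 2 of smallest p per comparison in complexes I, III, IV and V, all of complex II, fixed core subunits, tissue-specific isoforms with their partners, and the 5 other genes most correlated with the subunit mean. Genes outside this rule are said to be so, and 1 gene under it is not reported here. Promoter sequences are RefSeq's (GRCr8).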

Additional observations from a re-analysis of the deposited data

How the results depend on the processing

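Results were recomputed under 27 other settings, 12 of which left out 1 library. Of the 27, 2 (the reads-in-genes covariate and the block in FSL vehicle and non-responders only) were added after the data were seen. The choroid-rich libraries and those low in Prox1, each left out together in 1 setting, were also picked from their measured levels. Wherever a setting gave the test, 0 members passed the adjusted threshold, with edgeR, DESeq2 and limma-voom; the fits of the compared groups only have no test over the 4 groups, and the added block gives 1 comparison. The median log2 fold change of all subunits was the result that moved. Leaving out the 3 choroid-rich libraries, it was 0.083 between the lines, -0.055 for responders against FSL vehicle and -0.17 for non-responders against FSL vehicle, with FSL vehicle left at library 2, which is assumed to vary like the other groups. With the share of reads in genes as a covariate it was 0.023 for responders and -0.052 for non-responders against FSL vehicle. Leaving out 1 library gave -0.21 to -0.0042 between the lines, 0.043 to 0.25 for responders against FSL vehicle, -0.029 to 0.17 for non-responders against FSL vehicle, the extremes being without FSL vehicle library 2 or 3, and 0.035 to 0.12 for responders against non-responders. The medians of the complexes and of all subunits changed sign in 36 of 630 recomputed values, of which 18 came without the choroid-rich libraries, 8 without FSL vehicle library 3, 8 with the reads-in-genes covariate and 2 without non-responder library 1. None of these medians has a test, and the cause was not tested.

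With replicate number as a block the medians were -0.10, 0.15, 0.068 and 0.078, and 0 members passed in edgeR; members at an unadjusted p under 0.05 went from 1 to 3 between the lines, from 4 to 9 for responders against FSL vehicle, and from 0 to 1 between the LAC groups, against 13.5%, 13.4% and 3.05% of all genes in the blocked fit. The block ended the call of Cmc1 between the lines (adjusted p = 0.129 in edgeR) and changed no call of a member. The other genes named here that are not members were not followed into the blocked fit. In the paired fit of FSL vehicle and non-responders alone the median was 0.061.

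Counts of all genes past the threshold depended more on the setting. Between the lines edgeR called 8 genes, DESeq2 160, limma-voom 5, the fit without choroid-rich libraries 17 and the pan-neuronal fit 0, and leaving out 1 library gave 2 to 271 (without FSL vehicle library 1). For responders against FSL vehicle edgeR called 0, DESeq2 178 and the fit without choroid-rich libraries 36, and leaving out 1 library gave 0 to 349. For non-responders against FSL vehicle DESeq2 called 2, and between the LAC groups the fit without choroid-rich libraries called 11. Over the 4 groups edgeR called 3, DESeq2 180, the fit without choroid-rich libraries 27 and leaving out 1 library 2 to 98. Between the lines, the fits of the compared groups only, with the block, with the meningeal or reads-in-genes covariate, without the libraries low in Prox1 and with at least 10 counts in every library called 2, 4, 3, 3, 2 and 5. Depth limits the isoforms Cox4i2, Cox6a2, Cox6b2, Cox8b and Ndufa4l2, whose counts per library were low.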
